A study of Mus musculus with 24 samples.

Results

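The 5 mouse genes of the histone H3 lysine 36 (H3K36) methyltransferases, Setd2, Nsd1, Nsd2, Nsd3 and Ash1l, were followed in the RNA-seq of in vitro-grown oocytes. They were chosen by name, with the older symbols Whsc1 (Nsd2) and Whsc1l1 (Nsd3) also searched, and all 5 were found under their current symbols among the 16572 gene names of the expression table. Oocytes were taken from ovaries of 7-day-old mice, labelled as strain C57BL/6 Barb, while the study's methods describe a cross of this background with SV129. They were grown without follicles on gelatine-coated plates, and class IV oocytes, the largest size class, were collected at 60 to 70 µm according to the labels. The IV 5% O2 oocytes (at 5% O2) came from 9 days of culture in 5% oxygen with the medium changed daily. The IV 20% O2 oocytes (at 20% O2) came from 14 days in 20% oxygen with the medium changed on alternate days, and the methods give them a smaller diameter than the labels do. Oxygen, culture time, medium change and any difference in size therefore cannot be told apart. The 2 libraries of each condition are represented by 1 column, taken here as pooled since how it was made is not given. The values therefore carry no SD, no p-value and no replicate check. Bisulphite libraries of the same study were not analysed here.

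H3K36 methylation is laid down over transcribed chromatin. Setd2 travels with elongating RNA polymerase II and deposits the trimethyl mark over gene bodies, whereas Nsd1, Nsd2, Nsd3 and Ash1l are chiefly enzymes of the mono- and dimethyl marks. In growing oocytes DNA methylation is acquired mainly across transcribed regions, and the PWWP domain of Dnmt3a, the de novo DNA methyltransferase, binds methylated H3K36. Loss of Setd2 in mouse oocytes is known to remove the trimethyl mark and to disturb the oocyte DNA methylation pattern.

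Levels are given as RPM, the reads counted on the exons of a gene after each column was scaled to a common library size. From the value of 1 read, the library behind the IV 5% O2 column had 132185258 reads, of which 109629353 were on genes, and that behind the IV 20% O2 column had 40875359 reads, of which 29754908 were on genes. The first is the more precise. The limit that no reads would allow, 3 reads, was 0.0227 RPM at 5% O2 against 0.0734 RPM at 20% O2, and every H3K36 methyltransferase lay far above this limit. The 95% intervals on levels, shares and folds were computed exactly (Clopper-Pearson) from the reads. They describe these pooled libraries, cover counting error only and say nothing of the spread between cultures. All 10 oocyte markers examined, among them Gdf9, Zp2 and Figla, were detected in both columns.

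The promoter of Setd2 was the only one of the 5 with an entry in the RefSeq promoter table (GRCm38.p6), and the promoters of Nsd1, Nsd2, Nsd3 and Ash1l are not shown. It is given because Setd2 writes the mark most directly tied to oocyte DNA methylation and because the cultures differed in oxygen. The 250 bases before the start site lie at chr9:110532347-110532596 on the plus strand, and the capitals mark the match to the core hypoxia response motif.
Setd2: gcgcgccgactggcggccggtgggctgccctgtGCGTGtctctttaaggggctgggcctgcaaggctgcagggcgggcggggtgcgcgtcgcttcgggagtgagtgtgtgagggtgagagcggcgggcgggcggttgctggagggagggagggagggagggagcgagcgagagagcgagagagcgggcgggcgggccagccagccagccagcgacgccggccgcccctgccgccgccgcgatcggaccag
Both forms of the core motif, ACGTG and GCGTG, were searched on both strands. GCGTG occurred once, starting 217 bases before the start site, and 28.2% of the 32851 windows of this length in the table hold it. ACGTG was not in this window, and 16.6% of all windows hold it. The window had 31 CG dinucleotides against a median of 6 over all windows, placing it at percentile 94.8. A match of these letters is a description of the sequence and says nothing on binding.

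Setd2 (ENSMUSG00000044791.16), the writer of the trimethyl mark, lies on chromosome 9 of GRCm38 from 110532597 to 110618633, with 10754 bases of exon. It had 211 RPM at 5% O2 (27881 reads) against 189 RPM at 20% O2 (7727 reads). Nsd1 (ENSMUSG00000021488.8), the dimethyltransferase gene mutated in Sotos syndrome in humans, lies on chromosome 13 from 55209782 to 55318325 with 17483 bases of exon. Nsd1 had 320 RPM at 5% O2 (42284 reads) against 217 RPM at 20% O2 (8886 reads). It was the member with the most reads in both columns and the one whose columns were farthest apart upwards. Nsd2 (ENSMUSG00000057406.16), a dimethyltransferase gene deleted in Wolf-Hirschhorn syndrome, lies on chromosome 5 from 33820725 to 33897975 and has 16803 bases of exon. It had 185 RPM at 5% O2 (24394 reads) against 160 RPM at 20% O2 (6541 reads). Nsd3 (ENSMUSG00000054823.16), the third gene of the Nsd family, lies on chromosome 8 from 25601601 to 25719667 with 16513 bases of exon. Nsd3 had 30.0 RPM at 5% O2 (3961 reads) against 26.6 RPM at 20% O2 (1086 reads), the lowest of the family in both columns and also the lowest per length. Ash1l (ENSMUSG00000028053.13), a Trithorax-group dimethyltransferase gene, lies on chromosome 3 from 88950622 to 89079375 with 14838 bases of exon. It had 47.6 RPM at 5% O2 (6293 reads) against 63.7 RPM at 20% O2 (2602 reads), and it was the only member with the lower value at 5% O2.

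All 5 genes lie on the plus strand. They are long, spanning from 77.3 kb (Nsd2) to 129 kb (Ash1l), and their exonic GC content ranged from 42.9% to 46.0%. The values cover whole genes. Transcripts with and without the catalytic SET domain, such as the short form known for Nsd3, are therefore not separated. Of the 100-base exonic windows taken every 10 bases along Setd2, Nsd1, Nsd2 and Nsd3, 0 occurred a second time in the genome, and for Ash1l 0.161% did. Exons of Nelfa on the opposite strand overlap 60 bases of Nsd2, and exons of Dap3 overlap 352 bases of Ash1l, or 2.37% of its exons. Dap3 was higher at 5% O2 (155 against 80.0 RPM), the direction opposite to that of Ash1l. The libraries mark strand, but the strand setting of the counting is not given in the sources used here.

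**Figure D1:**
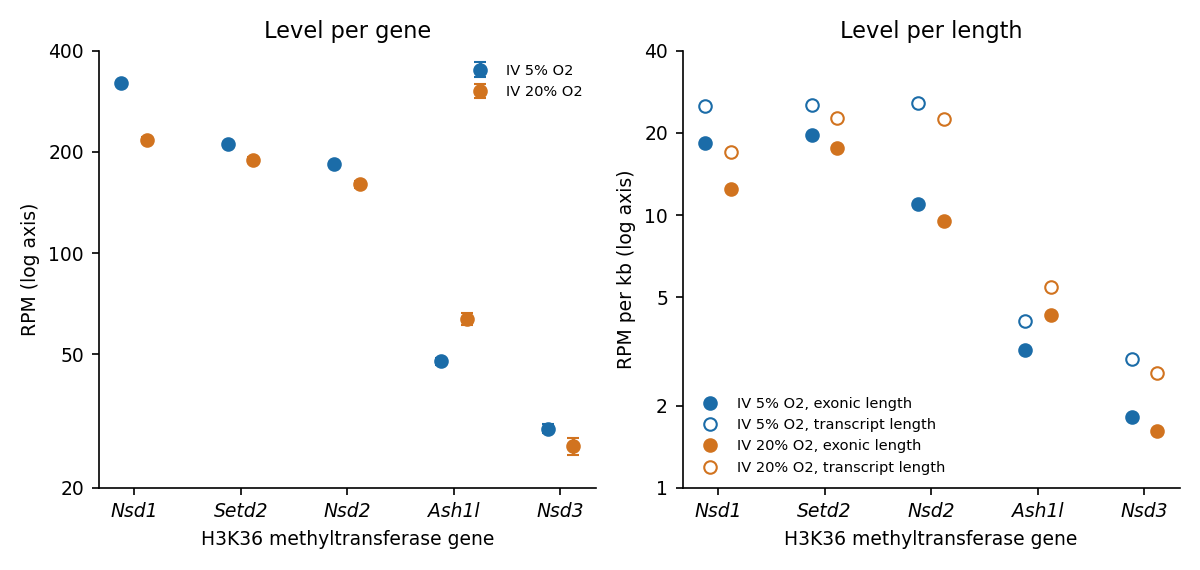
Level of each H3K36 methyltransferase gene in IV 5% O2 (blue) and IV 20% O2 (orange), as RPM with 95% counting intervals on the left and as RPM per kb on the right, both on log axes. Filled points on the right divide by the exonic length of the gene and open points by the length of the transcript with the longest coding sequence; Nsd1, Setd2 and Nsd2 lie above Ash1l and Nsd3 in both columns with either length.

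Per kb of exon, Setd2 had the highest level in both columns and Nsd3 the lowest. In IV 5% O2 the levels were 19.6 RPM per kb for Setd2, 18.3 for Nsd1, 11.0 for Nsd2, 3.21 for Ash1l and 1.82 for Nsd3. In IV 20% O2 they were 17.6, 12.4, 9.52, 4.29 and 1.61 RPM per kb in the same order. The order was thus the same in both cultures, and every neighbouring pair differed by more than counting error. The closest neighbours were Setd2 and Nsd1, 1.07-fold apart at 5% O2. The exonic lengths are those of GENCODE M21. By the methods the reads were counted over an oocyte transcript annotation, but 16396 of the 16572 names had GENCODE M21 coordinates. Which exons were counted is thus not settled, and the order at the top depended on the length taken. With the length of the transcript carrying the longest coding sequence, which is only 7142 bases for Nsd2, Setd2, Nsd1 and Nsd2 had 25.26, 25.02 and 25.84 RPM per kb at 5% O2, and 22.64, 17.01 and 22.41 RPM per kb at 20% O2. On this scale Setd2 and Nsd1 did not differ beyond counting error at 5% O2, nor did Setd2 and Nsd2 at 20% O2. Ash1l (4.09 and 5.47 RPM per kb) and Nsd3 (2.97 and 2.63 RPM per kb) stayed at the bottom. Among all genes with a known exonic length, the level per kb of exon placed Setd2 at percentile 84.4 at 5% O2 and 84.8 at 20% O2, and Nsd3 at 37.0 and 37.6. Nsd1 was at percentile 83.2 and 79.0, Nsd2 at 73.9 and 73.4, and Ash1l at 47.7 and 56.1.

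The comparison of the cultures asked how far the enzymes that write H3K36 methylation differed between oocytes grown in low and in atmospheric oxygen. None of the 5 genes was 2-fold apart between the columns. Nsd1 was 1.47-fold higher at 5% O2, Ash1l was at 0.748 of its IV 20% O2 value, and Setd2, Nsd2 and Nsd3 differed by 11.6% to 15.3%. Over the 14704 genes tested, those whose mean reached 1 RPM, 18.7% were at least 2-fold higher at 5% O2 and 9.22% at least 2-fold lower (27.9% in either direction), against 0 of 5 members in each direction. The share of genes in either direction was 25.5% after median-ratio scaling of the columns and 24.7% after quantile normalization, again against 0 of 5 members. Of all the genes called, 67.0% were higher at 5% O2, a share that became 45.6% after median-ratio scaling and 48.6% after quantile normalization.

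The scale of the differences was log2(RPM + 1), with the 20% O2 value subtracted from the 5% O2 value. This scale understates the change of low genes, and intervals belong to the RPM ratio without the added 1. The median difference of all genes tested was 0.26, so each member is also given relative to it. Nsd1 had a log2 difference of 0.56 (interval 0.52 to 0.59), or 0.30 above the median gene, at percentile 64.1 of all genes tested. Setd2 was at 0.16 (interval 0.12 to 0.19) and at percentile 45.2, and relative to that of the median gene it was -0.10. Nsd2 had 0.20 (interval 0.17 to 0.25) and stood at -0.054 relative to the median gene, at percentile 47.6. Nsd3 was at 0.17 (interval 0.076 to 0.27) and at percentile 45.7, with -0.091 against the median gene. Setd2, Nsd2 and Nsd3 thus lay just below the middle of the distribution. Ash1l had -0.41 (interval -0.49 to -0.35), which against the median gene was -0.67, at percentile 21.6. The median of the 5 members was 0.17, beside 0.26 for all genes tested.

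The direction of Setd2, Nsd2 and Nsd3 was set by the scaling. With median-ratio scaling, which moves the median of all genes to -0.040, Setd2 came to -0.16, Nsd2 to -0.11 and Nsd3 to -0.14. With quantile normalization, under which the median gene is at 0.056, Setd2 was at -0.098, Nsd2 at -0.019 and Nsd3 at 0.013. Nsd1 remained higher at 5% O2, at 0.24 and 0.30 with these scalings. Ash1l remained lower, at -0.73 and -0.60.

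**Figure D2:**
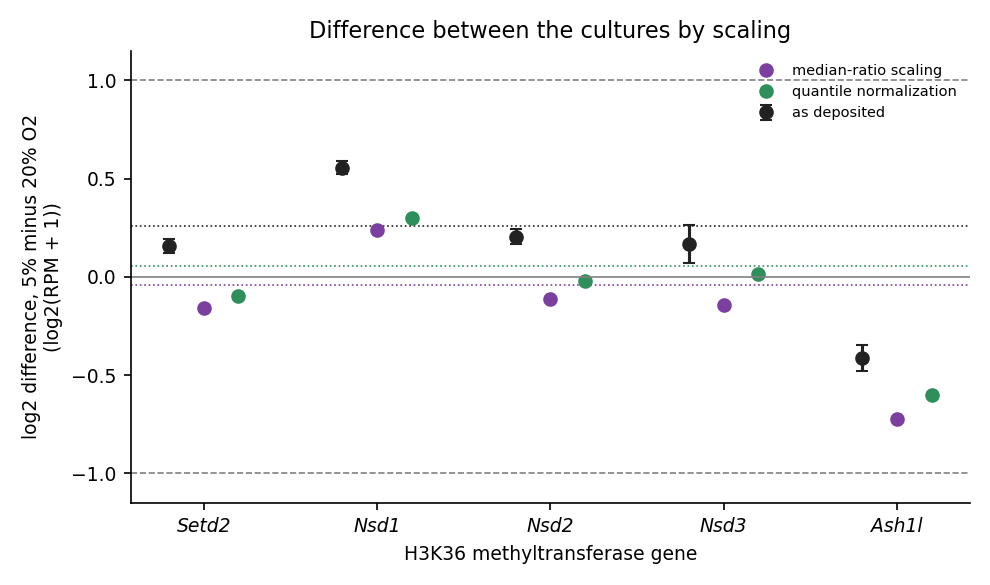
Difference on log2(RPM + 1), IV 5% O2 minus IV 20% O2, of each H3K36 methyltransferase gene with the columns as deposited (black, with 95% counting intervals), after median-ratio scaling (purple) and after quantile normalization (green). Dotted lines mark the median of all genes under the scaling of the same colour and dashed lines a 2-fold difference; Nsd1 is above 0 and Ash1l below 0 under all 3 scalings, and no member reaches 2-fold.

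The make-up of the family compares members within a column, so a factor applied to a whole column, as in median-ratio scaling, leaves it as it is. Quantile normalization moves genes unequally and can shift these values. Nsd1 took 40.3% of the reads of the 5 genes at 5% O2 (interval 40.1% to 40.6%) and 33.1% at 20% O2 (interval 32.5% to 33.7%), a difference of 7.24 percentage points. Quantile normalization put these shares at 40.2% and 33.3%. Ash1l took 6.00% at 5% O2 (interval 5.86% to 6.15%) and 9.69% at 20% O2 (interval 9.34% to 10.1%), or 6.13% and 9.60% when quantile normalized. The share of Setd2 was 26.6% at 5% O2 and 28.8% at 20% O2, that of Nsd2 was 23.3% and 24.4%, and that of Nsd3 was 3.78% and 4.05%, or 3.88% and 3.93% when quantile normalized. Per kb of exon, Setd2 held the largest share in both columns, with 36.4% at 5% O2 and 38.7% at 20% O2, and Nsd1 held 33.9% and 27.4%. Summed over the family, 793 RPM at 5% O2 stood against 657 RPM at 20% O2, a log2 ratio of 0.27 (interval 0.25 to 0.29). Unlike the shares, this ratio depends on every scaling, and it was -0.048 after median-ratio scaling and 0.032 after quantile normalization. Without Nsd1, which decides much of this value, the sums were 473 and 439 RPM and the log2 ratio was 0.11 (interval 0.083 to 0.13), which turned to -0.21 and -0.12 with these scalings.

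**Figure D3:**
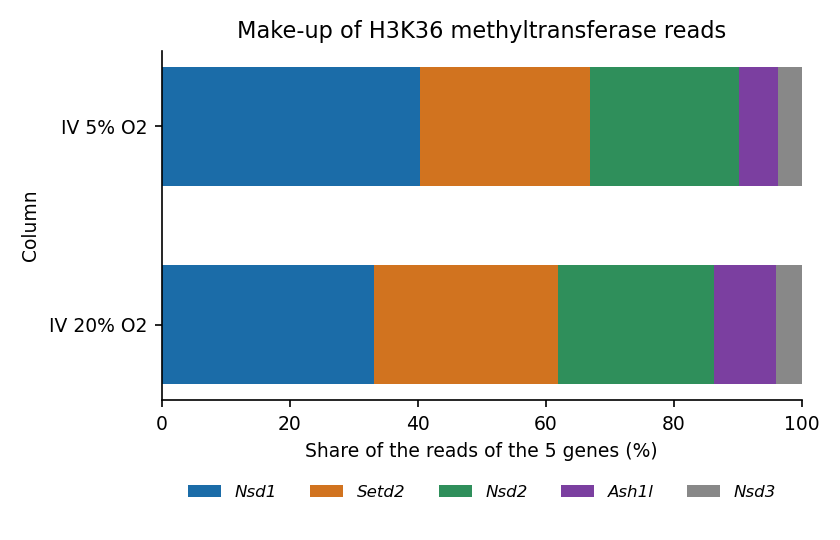
Share in percent of the reads of the 5 H3K36 methyltransferase genes taken by each gene, in IV 5% O2 (upper bar) and IV 20% O2 (lower bar). The Nsd1 segment is wider in IV 5% O2 (40.3% against 33.1%) and the Ash1l segment is wider in IV 20% O2 (9.69% against 6.00%).

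Of the 10 pairs of members, 3 kept their ratio between the columns within counting error, namely Setd2 with Nsd2, Setd2 with Nsd3 and Nsd2 with Nsd3. Setd2 had 7.04 times the reads of Nsd3 at 5% O2 and 7.12 times at 20% O2, and the log2 change of this ratio was -0.016 (interval -0.12 to 0.088), or -0.11 when quantile normalized. Setd2 had 1.14 times the reads of Nsd2 at 5% O2 and 1.18 times at 20% O2, a log2 change of -0.048 (interval -0.10 to 0.0059), or -0.080 when quantile normalized. For Nsd2 and Nsd3 the change was 0.032 (interval -0.072 to 0.14), or -0.032 when quantile normalized. All other pairs included Nsd1 or Ash1l. The ratio of Nsd1 to Ash1l moved the most, from 3.42 at 20% O2 to 6.72 at 5% O2, a log2 change of 0.98 (interval 0.90 to 1.05), or 0.92 when quantile normalized. The ratio of Nsd1 to Setd2 also differed, since Setd2 had 0.870 of the Nsd1 reads at 20% O2 and 0.659 at 5% O2.

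Genes that remove, read or help to place the mark were listed beside the writers. The 9 genes listed as H3K36 demethylases had a median log2 difference of -0.073 (-0.39 after median-ratio scaling and -0.26 after quantile normalization). Of them, 0 were at least 2-fold higher and 1 (11.1% beside 9.22% of all genes) was at least 2-fold lower at 5% O2. Kdm2b, with the highest RPM of them and a demethylase of the dimethyl mark, had 321 RPM at 5% O2 against 279 RPM at 20% O2, a log2 difference of 0.20 that was below 0 after either scaling. Riox2 was the gene past 2-fold, with 20.4 RPM at 5% O2 against 44.8 RPM at 20% O2, a log2 difference of -1.10. Riox2 is best known as a histidine hydroxylase of a ribosomal protein, so this count rests on a gene that may not act on H3K36. Riox2 came to -0.97 with a pseudocount of 5 RPM, short of 2-fold. The reads of the 5 writers were 1.40 times those of the 9 genes listed as erasers at 5% O2 and 1.27 times at 20% O2. This small difference rested on Nsd1, without which the log2 change of the ratio turned from 0.14 to -0.028. Without Riox2 the log2 change was 0.060.

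The 16 genes of proteins that bind methylated H3K36 had the highest median among the 8 lists of chromatin and transcription genes, at 0.88 beside 0.26 for all genes. This median was 0.56 after median-ratio scaling (beside -0.040 for all genes) and 0.69 after quantile normalization (beside 0.056). Of the 16, 15 were above 0 (93.8% beside 62.6% of all genes). After either scaling 13 were (81.2%), beside 48.1% of all genes with median-ratio scaling and 52.5% when quantile normalized. At least 2-fold higher were 5 (31.2% beside 18.7% of all genes) and at least 2-fold lower were 0. Hdgf, which encodes a PWWP domain protein, had 89.7 RPM at 5% O2 against 25.7 RPM at 20% O2, a log2 difference of 1.76. Psip1, the gene of the chromatin-tethering protein LEDGF, had 186 and 78.0 RPM, a log2 difference of 1.25. Brpf1, a scaffold of histone acetyltransferase complexes, had 36.6 RPM at 5% O2 against 16.1 RPM at 20% O2. Phf19 (14.1 against 4.09 RPM) and Mtf2 (110 against 54.3 RPM) encode Tudor domain partners of Polycomb repressive complex 2. With median-ratio scaling, 2 of these 5 genes, Hdgf and Phf19, remained at least 2-fold higher, which is 12.5% of the list and near the 11.6% of all genes. When quantile normalized, 3 of the 16 did (18.8% beside 12.0%). Glyr1, the reader with the highest RPM, had 225 and 161 RPM, a log2 difference of 0.48. It was 0.16 after median-ratio scaling and 0.25 after quantile normalization. Dnmt3a, which links the mark to DNA methylation, had a difference of 0.16 (118 against 105 RPM), equal to that of Setd2 at 2 decimals, and it too was below 0 with either scaling.

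The 15 genes of RNA polymerase II elongation, through which Setd2 is brought to chromatin, held genes on both sides. At least 2-fold higher at 5% O2 were 3 (20.0% beside 18.7% of all genes) and at least 2-fold lower were 2 (13.3% beside 9.22%). They were the same genes under all 3 scalings, while the shares of all genes were 11.6% and 13.9% with median-ratio scaling and 12.0% and 12.7% with quantile normalization. Rtf1, of the PAF1 elongation complex, had 92.7 RPM at 5% O2 against 22.2 RPM at 20% O2, a log2 difference of 2.01. Paf1 had 107 and 27.9 RPM (1.90), and Leo1 had 79.9 and 30.3 RPM (1.37). Cdc73, of the same complex as Paf1 and Leo1, had 11.5 RPM at 5% O2 against 36.2 RPM at 20% O2, a log2 difference of -1.58. The other PAF1 genes, Ctr9 (0.86) and Wdr61 (0.053, or below 0 after either scaling), were not past 2-fold. Polr2a, the largest subunit of the polymerase, whose phosphorylated tail Setd2 binds, had 41.4 and 123 RPM, a log2 difference of -1.56. Polr2b, the second largest subunit and the gene of the list with the highest RPM, had 215 and 161 RPM (0.42). Its difference was 0.10 after median-ratio scaling and 0.18 after quantile normalization. The median of the list was 0.39, or 0.076 after median-ratio scaling and 0.18 after quantile normalization.

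Of 5 other SET domain genes for which H3K36 methylation has been reported, 0 were 2-fold higher and 1 (20.0% beside 9.22% of all genes) was 2-fold lower. Setmar was this gene, with 7.16 RPM at 5% O2 against 16.8 RPM at 20% O2, a log2 difference of -1.12 that became -0.84 with a pseudocount of 5 RPM. Setd3, with the highest RPM of them and best known as an actin histidine methyltransferase, had 78.7 and 66.8 RPM. Its difference of 0.23 (log2) turned to -0.082 after median-ratio scaling and 0.028 after quantile normalization. Among 6 genes of the oocyte DNA methylation machinery, Dnmt3l, the cofactor of Dnmt3a, was the only one past 2-fold (1.95), which is 16.7% of the list beside 18.7% of all genes, and Dnmt1, the maintenance methyltransferase gene and the one with the highest RPM, was at 0.19, or -0.13 after median-ratio scaling and 0.47 after quantile normalization.

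**Figure D4:**
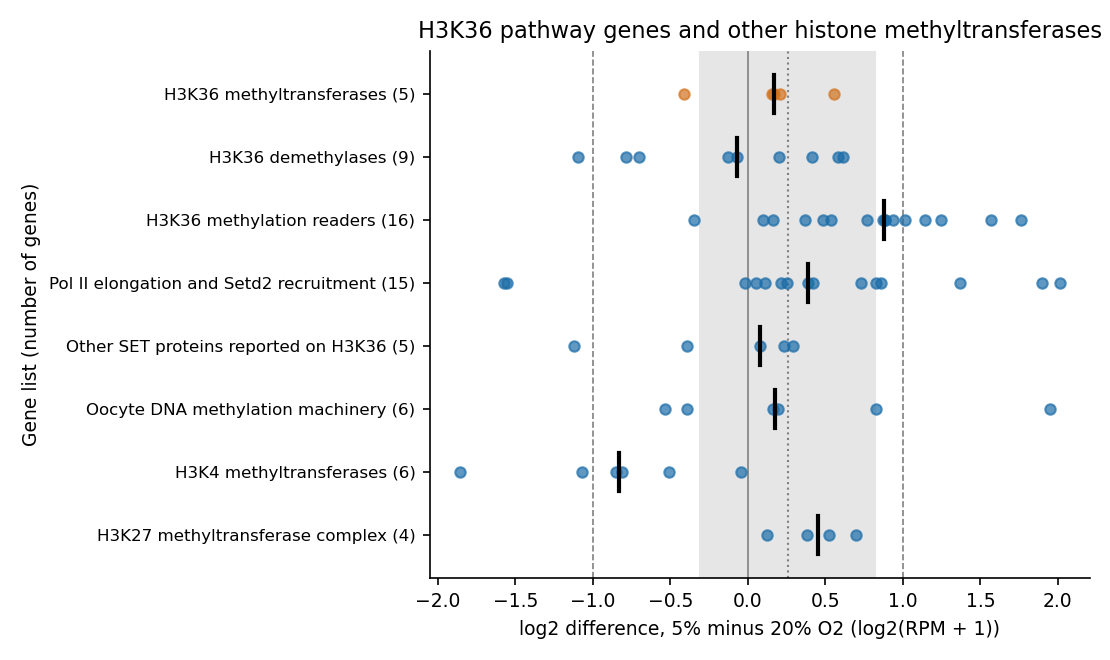
Difference on log2(RPM + 1), IV 5% O2 minus IV 20% O2, of each gene in 8 lists, with the number of genes in brackets and a black bar at the median of the list. The grey band holds the middle quartiles of all genes tested, the dotted line their median and dashed lines a 2-fold difference. The 5 H3K36 methyltransferases (orange) lie between -0.41 and 0.56, while all 6 H3K4 methyltransferases lie below 0. Of all genes tested, 62.6% lie above 0.

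The H3K36 methyltransferases were set beside the other large families of histone lysine methyltransferases of active and repressed chromatin. Of all genes tested, 62.6% were above 0 as deposited, 48.1% after median-ratio scaling and 52.5% after quantile normalization. All 6 H3K4 methyltransferase genes, the Kmt2 and Setd1 genes that mark promoters and enhancers, were lower at 5% O2 under all 3 scalings, with a median log2 difference of -0.83. At least 2-fold lower were 2 of them (33.3% beside 9.22% of all genes), a count that was 4 after median-ratio scaling (beside 13.9%), 3 after quantile normalization (beside 12.7%) and 1 with a pseudocount of 5 RPM (beside 706 of 14704 genes). Kmt2b, at -0.046 as deposited, did not differ beyond counting error (interval -0.096 to 0.0038). All 4 genes of the H3K27 methyltransferase complex were higher as deposited (beside 62.6% of all genes), with a median of 0.45 and 0 past 2-fold. The median was 0.14 and 0.23 after median-ratio scaling and quantile normalization, and 1 of the 4 genes, Ezh2, turned below 0 with either scaling. Within a column, the reads of the 5 H3K36 methyltransferases were 1.48 times those of the H3K4 methyltransferases at 5% O2 and 0.642 times at 20% O2. The ratio was 2.30-fold higher at 5% O2, a log2 change of 1.20 (interval 1.18 to 1.23), which median-ratio scaling leaves as it is and quantile normalization moved to 1.16. Leaving out each gene of both lists in turn gave between 0.96 (without Kmt2d) and 1.35 (without Kmt2b). Against the H3K27 complex, the ratio was 1.33 at 5% O2 and 1.44 at 20% O2, a log2 change of -0.11 (interval -0.14 to -0.079). Leaving out each gene in turn gave between -0.27 (without Nsd1) and -0.039 (without Suz12) for it. With 1 pooled column per condition, no test of these differences between families could be made.

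The genes nearest to each member in level and difference were found by the distance on log2(RPM + 1) over the 2 columns, among 12427 other named genes tested. They were Anln for Setd2 (distance 0.013), Tcea1 for Nsd1 (0.035), Cnppd1 for Nsd2 (0.018), Naxe for Nsd3 (0.0007) and Nrg4 for Ash1l (0.026). Anln, for example, had 210 RPM at 5% O2 against 190 RPM at 20% O2. With 2 columns many genes lie this close, and the likeness describes position only.

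RNA of other ovarian cells was looked for with marker lists, since these widely expressed enzymes are also made by somatic cells. In bulk samples, fewer cells of a type and less RNA per cell cannot be told apart. As deposited, 62.6% of all genes tested were higher at 5% O2, a share to set beside the counts of markers below. Of 15 theca and stroma markers, 8 were matched, and all 8 were higher at 5% O2, where they summed to 38.4 RPM against 4.97 RPM at 20% O2, or 21.9 and 4.84 RPM without Cyp11a1. Col1a2, Vim and Dcn had no reads at 20% O2, and the highest marker was Cyp11a1 (16.4 RPM) at 5% O2 and Fn1 (2.30 RPM) at 20% O2. Of 12 granulosa cell markers, 7 were matched, 6 of them higher at 5% O2, and they summed to 42.9 and 29.9 RPM, or 24.2 and 12.3 RPM without Nr5a2. Fshr had no reads at 5% O2 and Inha none at 20% O2, and the highest was Nr5a2 in both, with 18.7 and 17.6 RPM. The 4 macrophage markers matched summed to 24.9 and 22.6 RPM, with no reads of Lyz2 at 20% O2. Csf1r had the highest level (9.28 and 15.0 RPM) and was the only one lower at 5% O2, and the other 3 summed to 15.6 and 7.58 RPM. The 4 endothelial markers matched summed to 117 and 284 RPM, with no reads of Kdr at 20% O2. Vwf (55.5 and 248 RPM) was the only one lower at 5% O2 and set this sum, and the other 3 summed to 61.0 and 36.1 RPM. Of the 23 somatic markers matched, 20 were higher at 5% O2 as deposited (beside 62.6% of all genes tested), all but Vwf, Csf1r and Fshr. After median-ratio scaling 18 were (beside 48.1%), without Nr5a2 and Cd68, and 19 after quantile normalization (beside 52.5%). Fshr, Inha, Gja1, Col1a2, Pdgfra, Lyz2 and Kdr are counted here although their means were below 1 RPM. The oocyte markers summed to 9335 and 12760 RPM, or 7798 and 8954 RPM without Zp2. Of these 10, 4 were higher at 5% O2 (beside 62.6% of all genes tested), and Zp2 (-1.31) and Zp3 (-1.12) were at least 2-fold lower (20.0% beside 9.22% of all genes). Beside these, the 5 methyltransferases summed to 793 and 657 RPM, a direction that turned with median-ratio scaling. What part the cells behind these markers had in the differences was not tested.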

How the data were processed

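The authors aligned reads to mm10 with TopHat (TopHat2 2.0.9 and Trim Galore per the submitters' processing notes) and quantitated them in SeqMonk. Their methods name the merged exons of an oocyte transcript annotation and a correction for length. They deposited log2 values, 1 column per condition; how the 2 libraries became 1 column is not given in the sources used here. The file is named for RPKM, but the linear values were whole multiples of 1 step (within 0.1 reads for all but 3 values of each column), and were taken as log2 RPM not corrected for length. A gene listed at 0.9 of 1 read was set to 0. For 18 names with several rows, the row with the highest mean was used. Of 16572 names, 16396 were matched to GENCODE M21 (GRCm38) by coordinates and 157 by name. The bounds of nearly all genes were thus those of GENCODE M21, and which exons were counted is not settled here. A further value column belongs to none of the samples and was not used (1 column).

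Genes whose mean reached 1 RPM were held against a 2-fold threshold on log2(RPM + 1). Pooled columns allow no test, so the planned limma fits were not run. Intervals of ratios between members and of list ratios are normal approximations on log counts at 95%. The members and lists were chosen with earlier results of these data known. Named genes were the members, the genes past 2-fold and the gene with the highest RPM of each of the 5 pathway lists (not the H3K4 and H3K27 lists), the nearest gene to each member, and the highest marker of each list. Dnmt3a, Ezh2, Dap3, Kmt2d, Kmt2b, Suz12, Ctr9, Wdr61, Zp3, Cd68, Figla, the markers at 0 and those with a mean below 1 RPM were named after their values were seen. Scripts were tested on simulated reads. Alternatives were pseudocounts of 0.1 and 5 RPM, median-ratio scaling, quantile normalization, no filter, a minimum mean of 5 RPM and division by exonic length. Scripts ran under Python 3.11.15 with pandas 2.3.3 and numpy 2.4.6, figures were drawn with matplotlib 3.10.9, and intervals came from scipy 1.17.1. Repeated windows were counted with numba 0.67.0.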

Additional observations from a re-analysis of the deposited data

How the results depend on the processing

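No paired analysis was possible because each condition is 1 pooled column without replicate numbers, and limma, the replicate block and leaving out a library were not run for the same reason. The count of H3K36 methyltransferases past 2-fold was 0 in each direction under every alternative run. With median-ratio scaling and then with quantile normalization, Setd2 reversed (-0.16 and -0.098), as did Nsd2 (-0.11 and -0.019) and the median of the 5 genes (-0.14 and -0.019). Nsd3 reversed with median-ratio scaling (-0.14) and came to 0.013 with quantile normalization. Nsd1 moved to 0.24 and 0.30 and Ash1l to -0.73 and -0.60 without changing direction, and Ash1l was at -0.33 after division by exonic length, where the added 1 weighs more. Scaling the columns shifts all genes alike in the median-ratio case, which accounts for those reversals; for quantile normalization the cause was not tested.

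Among the lists, genes listed as H3K36 demethylases and at least 2-fold lower numbered 0 with a pseudocount of 5 RPM and 2 with median-ratio scaling, against 1. Readers at least 2-fold higher numbered 3, 2 and 3 with a pseudocount of 5 RPM, median-ratio scaling and quantile normalization, against 5. The other SET genes at least 2-fold lower numbered 0 with a pseudocount of 5 RPM, against 1. H3K4 methyltransferases at least 2-fold lower numbered 1, 4 and 3 with a pseudocount of 5 RPM, median-ratio scaling and quantile normalization, against 2. Of all genes, 1202, 1700, 1764 and 1691 were at least 2-fold higher with a pseudocount of 5 RPM, median-ratio scaling, quantile normalization and a mean of at least 5 RPM, against 2753. In the same order of settings, 706, 2031, 1866 and 917 were at least 2-fold lower, against 1356. The ratios of reads between lists, their quantile normalization, the scaled sums over the family, the scaled marker counts, the marker sums without the highest marker and the transcript length were added after the data were seen; without Nsd1 the change in the ratio of writers to erasers reversed (-0.028). The summed level of the 5 genes reversed with median-ratio scaling (-0.048), and without Nsd1 it reversed with both scalings (-0.21 and -0.12). Depth limits Nsd3 most, with 1086 reads in IV 20% O2.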
